A study of Mus musculus with 21 samples.

Results

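The 45 genes described here encode the folding machinery of the endoplasmic reticulum (ER) lumen: HSP70 and HSP90 chaperones and their co-chaperones, the protein disulfide isomerase (PDI) family, the oxidases that feed it, and ER prolyl isomerases. They were taken by gene symbol from the table of gene-level estimated counts, which holds 45706 genes, and all 45 were found. Gene expression was measured by RNA-seq of polyadenylated RNA in the mouse prostate cancer line Myc-CaP, which carries a Myc transgene, and in tumours that these cells formed in FVB mice. The cells were either wild type (WT) or knocked out (KO) for Ern1, the gene of the ER stress sensor IRE1α, with Cas9 and 1 guide RNA. There were 3 KO lines, called KO1, KO2 and KO3, and 1 WT line. Tumours gave 3 libraries of each KO line and 4 of WT, and cultured cells gave 2 libraries of each KO line and 2 of WT, so that there were 8 groups and 21 libraries. The Myc transgene is common to all groups, WT included. The labels give no age or sex of the mice and do not say whether a KO line is a single clone, and they do not state separate cultures for the cell libraries. WT tumours 3 and 4 share a number in their descriptions, and whether they came from 1 mouse is not given, so counts were also made with these 2 libraries summed. The p-values therefore rest on the spread among the deposited libraries, which may be technical.

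Proteins that enter the ER fold with the help of the HSP70 family chaperone BiP (Hspa5), whose ATPase cycle is driven by DNAJ co-chaperones and nucleotide exchange factors, while PDI family enzymes form and rearrange disulfide bonds and hand the electrons to ERO1 oxidases. When folding falls behind, the sensors IRE1α, PERK and ATF6 raise the transcription of these genes. The RNase of IRE1α splices Xbp1 mRNA so that it encodes the transcription factor XBP1s, and cleaved ATF6 is a transcription factor of its own. The ER stress response element (ERSE) and the related ERSE-II are promoter sequences through which these factors are known to act.

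The promoters of the genes are shown first as a description, and a link between their sequence and the changes below was not tested. The promoter table of RefSeq (GRCm38.p6, 250 bases before to 50 after a start) held 38 of the 45 genes in a form used here, and Hyou1, Sil1, Erp29, Tmx3, Fkbp10, Ppic and Manf are without one. On either strand, ERSE, taken as CCAAT and CCACG with 9 bases between them, was found in 6 of these 38 genes, against 0.137% of 27025 genes with a promoter in the table, and ERSE-II, ATTGG and CCACG with 1 base between them, in 2, against 0.0444%. Both contain the letters CCACG, which alone were in 28 of the 38, against 35.5% of genes, and the letters ACGTG were in 22, against 21.8%. These are matches of letters and not shown to be sites. Written 5′ to 3′ on the strand of the gene, Hspa5 at chr2:34771840-34772139 (+ strand) holds 1 ERSE, 65 to 47 bases before the start, and Hsp90b1 at chr10:86705395-86705694 (- strand) holds 2, one on each strand, and capitals mark the outer letters of each element, the one on the other strand reading CGTGG first.
Hspa5: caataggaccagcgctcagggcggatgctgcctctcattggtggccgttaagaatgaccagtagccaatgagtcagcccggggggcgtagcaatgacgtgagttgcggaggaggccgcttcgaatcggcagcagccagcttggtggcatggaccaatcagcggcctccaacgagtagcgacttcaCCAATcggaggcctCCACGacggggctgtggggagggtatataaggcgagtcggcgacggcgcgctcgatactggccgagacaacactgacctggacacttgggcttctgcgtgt
Hsp90b1: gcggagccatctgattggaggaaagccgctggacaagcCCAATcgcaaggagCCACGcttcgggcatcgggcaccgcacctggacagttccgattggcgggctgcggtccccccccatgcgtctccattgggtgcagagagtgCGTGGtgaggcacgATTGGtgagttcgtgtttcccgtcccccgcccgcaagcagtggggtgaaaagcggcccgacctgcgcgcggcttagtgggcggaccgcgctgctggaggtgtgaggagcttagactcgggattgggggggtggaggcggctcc
Dnajb9 at chr12:44210019-44210318 (- strand) and P4hb at chr11:120573204-120573503 (- strand), the 2 genes with the most negative log2 fold changes in KO1 and KO2 tumours, have no ERSE or ERSE-II in this window, and here capitals mark CCACG and ACGTG on either strand, overlapping matches running together.
Dnajb9: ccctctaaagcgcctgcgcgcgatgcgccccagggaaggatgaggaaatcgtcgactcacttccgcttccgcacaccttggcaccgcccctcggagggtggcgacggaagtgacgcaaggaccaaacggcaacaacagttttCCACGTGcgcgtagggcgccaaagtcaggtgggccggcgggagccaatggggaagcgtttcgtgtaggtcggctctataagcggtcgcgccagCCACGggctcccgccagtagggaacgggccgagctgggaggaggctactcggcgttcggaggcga
P4hb: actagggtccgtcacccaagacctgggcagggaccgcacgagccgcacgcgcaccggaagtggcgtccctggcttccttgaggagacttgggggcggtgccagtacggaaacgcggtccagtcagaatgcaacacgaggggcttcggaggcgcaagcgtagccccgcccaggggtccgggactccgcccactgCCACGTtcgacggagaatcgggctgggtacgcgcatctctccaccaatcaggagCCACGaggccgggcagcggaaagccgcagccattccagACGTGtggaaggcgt
The elements of the other 6 genes are shown with 9 bases on either side and their outer letters in capitals. They are at chr14:118937818-118937854 (+ strand) for Dnajc3, chr12:17266482-17266518 (+ strand) for Pdia6, chr13:12565673-12565709 (+ strand) for Ero1lb and chr15:88819511-88819547 (+ strand) for Creld2 (ERSE), and at chr16:22857843-22857871 (+ strand) for Dnajb11 and chr7:45510430-45510458 (- strand) for Nucb1 (ERSE-II).
Dnajc3: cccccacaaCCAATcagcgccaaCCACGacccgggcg
Pdia6: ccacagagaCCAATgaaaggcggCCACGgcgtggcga
Ero1lb: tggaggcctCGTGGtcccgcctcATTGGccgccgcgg
Creld2: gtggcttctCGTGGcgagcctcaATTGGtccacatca
Dnajb11: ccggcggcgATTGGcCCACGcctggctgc
Nucb1: cagagtcagCGTGGaCCAATcagtattct

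Total counts ran from 15994285 to 27497796 in tumours and from 18105538 to 25068254 in cells. Ern1 mRNA was present in every library, at 59.1 to 89.4 CPM (counts scaled to library size with TMM) in KO tumours, against 66.0 to 84.5 CPM in WT tumours, and at 171 to 200.4 CPM in KO cells, against 120.5 to 133 CPM in WT cells. A gene-level count does not check the edit. WT tumour 4 had 24.0% of its counts in the gene Yam1, against 6.16% to 8.47% in the other tumours, and WT tumour 1 had a summed level of 7 neutrophil markers of 267 CPM, against 3.88 to 8.57 CPM in the others, so the counts in tumours below are also given without these 2 libraries. Among markers of prostate epithelium, Krt8 was at 84.1 to 309 CPM in tumours and 22.4 to 157 CPM in cells. Epcam was at 0 in all cell libraries and at most 0.243 CPM in tumours, and Krt18 and Cdh1 did not exceed 1.21 CPM in any library. Summed over 8 markers, fibroblast genes were at 2184 to 3150 CPM in KO1 tumours, 806 to 1152 CPM in KO2 tumours and 837 to 1778 CPM in KO3 tumours, against 521 to 2614 CPM in WT tumours. Leukocyte markers, 11 in number, summed to 532 to 772 CPM in KO1 tumours, 316 to 500.1 CPM in KO2 tumours and 423 to 565 CPM in KO3 tumours, against 241 to 733 CPM in WT tumours, and to 1.80 to 2.62 CPM in cells. The macrophage genes Adgre1 and Csf1r were at 42.6 to 55.1 CPM and 53.7 to 69.1 CPM in KO1 tumours, above the 17.1 to 25.9 CPM and 19.6 to 50.3 CPM of WT tumours. Cd3g, Cd4 and Ncr1 were also above WT in every KO1 tumour, at no more than 3.70 CPM. The other leukocyte markers, Ptprc, Cd68, Itgam, Lyz2, Cd3e and Cd8a, overlapped between KO1 and WT tumours. Itgam, for example, was at 23.8 to 31.8 CPM in KO1 tumours, against 15.9 to 71.0 CPM in WT tumours.

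In cultured cells 32 of 44 genes tested were lower in KO than in WT (9.76% of all genes). In tumours, 25 of 45 genes were below WT in KO1 and KO2 (6.04% of all genes). None passed in KO3 tumours, where only 0.690% of all genes were lower and the KO libraries were fewer. Compared directly with the other KO tumours, KO3 tumours had raised levels of 20 of 45 genes (1.19% of all genes). None was reduced (0.697% of all genes). These calls were made by edgeR at an adjusted p under 0.05. The 45 genes together made up 8683, 7918 and 8170 CPM in KO1 tumours, 9047, 10010 and 9331 CPM in KO2 tumours and 12897, 13481 and 11620 CPM in KO3 tumours, against 13984, 14233, 13207 and 12938 CPM in WT tumours. No KO1 or KO2 tumour reached the lowest KO3 or WT tumour, and 1 of the 3 KO3 tumours lay within the range of WT tumours. In cells the sum was 4286 and 4503 CPM in KO1, 4331 and 4251 CPM in KO2 and 5362 and 5206 CPM in KO3, against 9992 and 9575 CPM in WT. All 6 KO libraries were below both WT libraries by more than their spread. Tumours contain host cells whose transcripts were not separated, so fewer cells of a type and less RNA per cell cannot be told apart.

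**Figure D1:**
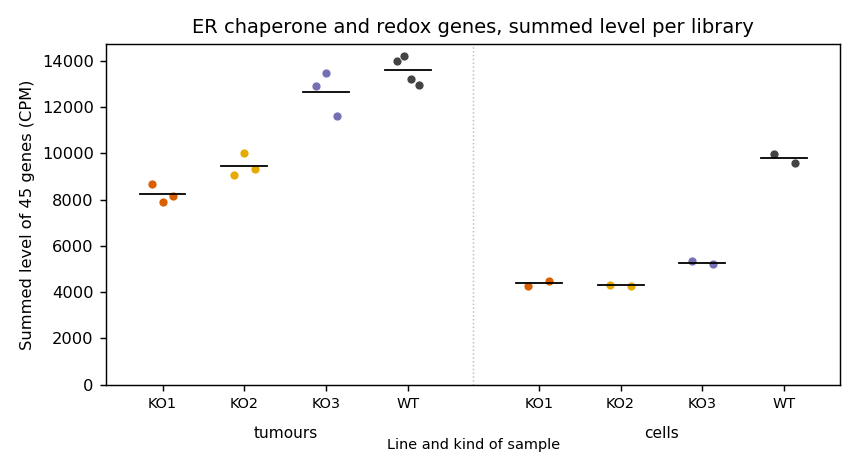
Summed level of the 45 genes in CPM (vertical axis) in each library (points) and its mean per group (bars), for tumours on the left and cells on the right. KO1 and KO2 tumours sit between 7918 and 10010 CPM, below the 11620 to 14233 CPM of KO3 and WT tumours, while all KO cells sit between 4251 and 5362 CPM, below the WT cells.

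Cultured KO and WT cells were compared first. Of the 44 genes tested in cells, 32 fell in the pooled KO libraries and none rose by edgeR at an adjusted p under 0.05, where 9.76% of all 12254 genes tested fell and 4.99% rose. No member rose at an unadjusted p under 0.05 either, and none rose by DESeq2 or limma voom. The median log2 fold change of the 44 was -0.90, against 0.02 over all genes. Split by line, 36 fell in KO1 and KO2 cells (23.1% of all genes fell and 20.2% rose), with a median of -1.08, and 35 fell in KO3 cells (14.1% of all genes fell and 10.4% rose), with a median of -0.66. Set against KO1 and KO2 cells, KO3 cells had higher levels of 19 of the 44 (17.1% of all genes) and lower levels of 3, Hyou1, Txndc12 and Ero1l (15.5% of all genes). That last count of 22 calls went to 11 without KO3 cell library 1 and to 13 without library 2. When the libraries of each line were summed into 1 sample, leaving 3 KO samples and 1 WT sample, 5 of the 32 falls passed.

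In tumours, 25 of 45 genes fell in KO1 and KO2 tumours against WT tumours, with a median log2 fold change of -0.45, where 6.04% of all 14483 genes tested fell and 2.64% rose. KO1 tumours taken alone gave 25 falls and KO2 tumours alone 16. Without WT tumours 1 and 4 the count of 25 was 21, and with WT tumours 3 and 4 summed it was 25. Of the 25, 24 had also fallen in KO1 and KO2 cells (96.0% of the 25, and 66.7% of the 36 that fell in cells), and Ero1l was the one that had not. Since 81.8% of the 44 genes tested in cells fell there, most of any 25 would overlap. The overlap among all genes was not counted, so this share is not a result about the 45. In KO3 tumours, edgeR called none of the 45 lower or higher than in WT tumours, where 0.690% of all genes fell and 0.545% rose. At an unadjusted p under 0.05, 7 were lower and 2 higher, while DESeq2 called 1 and limma voom 4, and the median log2 fold change was -0.09. KO3 tumours differed directly from KO1 and KO2 tumours: 20 of 45 genes were higher and none lower, with a median of 0.42, where 1.19% of all genes were higher and 0.697% lower. None was lower at an unadjusted p under 0.05 or by DESeq2 and limma voom, and the count of 20 went to 12 without KO3 tumour 3. Leaving out WT tumours 1 and 4 gave 21 for KO3 against KO1 and KO2 tumours and 0 for KO3 against WT tumours. Fibroblast and leukocyte markers had their highest medians in KO1 tumours, at 3035 and 649 CPM, against 1215 and 413 CPM in WT tumours, and skeletal muscle markers (8 genes) summed to 368 to 986 CPM in KO1, 17.5 to 768 CPM in KO2 and 1.85 to 6.76 CPM in KO3 tumours, against 4196 CPM in WT tumour 1 and 1.96 to 59.3 CPM in the other WT tumours, which all lay below every KO1 tumour. Their part in these results was not tested.

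**Figure D2:**
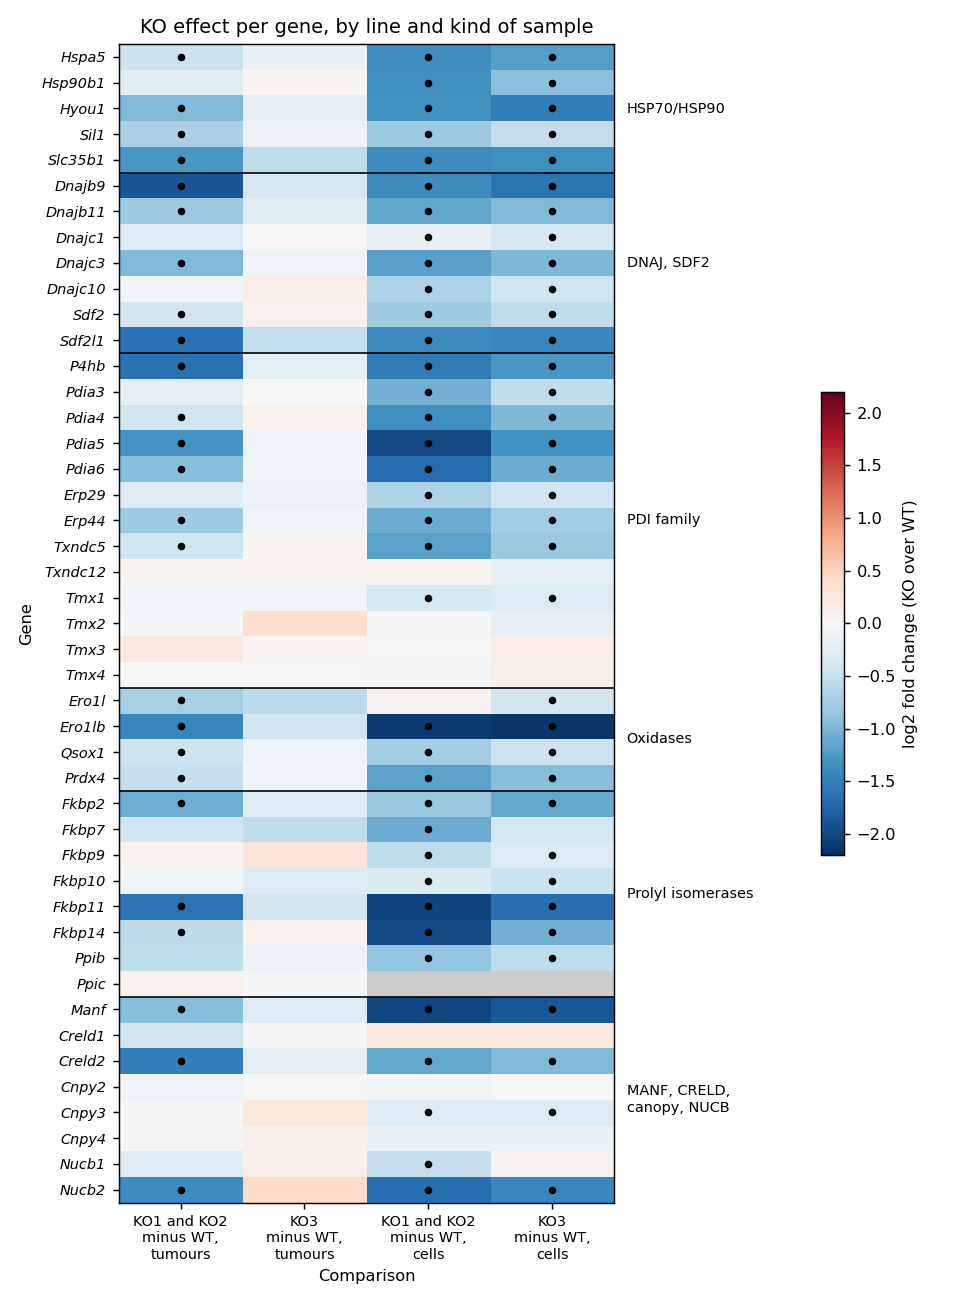
Log2 fold change of KO over WT (colour, blue for lower and red for higher in KO) for each of the 45 genes (rows, by class) in KO1 and KO2 tumours, KO3 tumours, KO1 and KO2 cells, and KO3 cells (columns), with a black dot where edgeR's adjusted p was under 0.05. Dots fill most of both cell columns and 25 rows of the first column, and the KO3 tumour column has none. Grey marks Ppic, which was not tested in cells.

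The 5 genes of BiP, its HSP90 partner, exchange factors and ATP supply all fell in cells of every line, and 4 of the 5 fell in KO1 and KO2 tumours, or 3 without WT tumours 1 and 4. Hspa5, which encodes BiP, the main HSP70 of the ER, had 1326, 1101 and 1176 CPM in KO1 tumours, 1332, 1759.6 and 1298 CPM in KO2 tumours and 1730.3, 1877 and 1422 CPM in KO3 tumours. WT tumours had 2242, 1878, 1698 and 1554 CPM. All KO1 tumours were below every WT tumour, whereas 1 KO2 tumour and 2 KO3 tumours lay within the WT range. Cultured cells had 469.5 and 586 CPM in KO1, 574 and 542 CPM in KO2 and 613 and 617 CPM in KO3, against 1439 and 1348 CPM in WT, and every KO library was below both WT libraries. The log2 fold change was -0.48 ± 0.13 in KO1 and KO2 tumours (SE from the F statistic, adjusted p = 0.0429 by edgeR) and -0.14 ± 0.16 in KO3 tumours (adjusted p = 0.75). In cells the edgeR values were -1.36 ± 0.08 in KO1 and KO2 cells (adjusted p = 1.42e-07) and -1.21 ± 0.10 in KO3 cells (adjusted p = 5.21e-06). Whether the tumour call of Hspa5 holds without single libraries, or without WT tumours 1 and 4, was not checked. Hsp90b1 encodes GRP94, the HSP90 of the ER. It had 2028, 1525 and 1555 CPM in KO1 tumours, 1973, 2300.4 and 2081 CPM in KO2 tumours and 2171, 2737 and 2097 CPM in KO3 tumours. WT tumours had 2221, 2365, 2183 and 2261 CPM. All KO1 tumours and 2 each of the KO2 and KO3 tumours lay below all WT tumours, 1 KO2 tumour lay within their range and 1 KO3 tumour above it. The cell libraries held 468 and 485 CPM in KO1, 459.9 and 403 CPM in KO2 and 648 and 612 CPM in KO3, against 1187 and 1136 CPM in WT. It fell in KO1 and KO2 cells, with a log2 fold change of -1.36 ± 0.07 (adjusted p = 7.19e-08 by edgeR) but did not pass in KO1 and KO2 tumours, at -0.25 ± 0.11 (adjusted p = 0.189 by edgeR). Hsp90b1 overlaps 2 other genes on its strand in GENCODE M21, Gm15344 and Gm25745, so its reads may be split.

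Hyou1, a large HSP70-like chaperone that also exchanges the nucleotide of BiP, had 239.5, 249 and 283 CPM in KO1 tumours, 256, 290.4 and 279.6 CPM in KO2 tumours and 511, 414 and 443 CPM in KO3 tumours. WT tumours had 405, 576, 518 and 577 CPM. Every KO1 and KO2 tumour was below every WT tumour, and all KO3 tumours lay within the WT range. In vitro the level was 168 and 182 CPM in KO1, 171 and 175 CPM in KO2 and 161 and 156 CPM in KO3, against 451 and 428 CPM in WT, with KO3 no higher than the other lines. Its log2 fold change was -0.97 ± 0.11 in KO1 and KO2 tumours (adjusted p = 1.99e-04 by edgeR), -0.19 ± 0.13 in KO3 tumours (adjusted p = 0.563) and -1.39 ± 0.08 in pooled KO cells (adjusted p = 5.77e-06), and KO3 tumours stood 0.77 ± 0.12 above KO1 and KO2 tumours (adjusted p = 0.00548). Slc35b1, known from human cells as the carrier that brings ATP into the ER, had 25.6, 38.0 and 36.3 CPM in KO1 tumours, 35.4, 30.8 and 37.1 CPM in KO2 tumours and 56.5, 49.8 and 62.7 CPM in KO3 tumours. WT tumours had 80.1, 105, 80.2 and 64.3 CPM. Here KO3 tumours were also all below WT tumours, though they did not pass (log2 fold change -0.56 ± 0.17, adjusted p = 0.146 by edgeR). Levels in culture were 19.3 and 18.5 CPM in KO1, 19.8 and 19.4 CPM in KO2 and 20.7 and 19.6 CPM in KO3, against 52.1 and 48.2 CPM in WT. It fell in KO1 and KO2 tumours (-1.29 ± 0.14, adjusted p = 1.62e-04 by edgeR) and in pooled KO cells (-1.37 ± 0.07, adjusted p = 3.11e-06). Sil1, an exchange factor of BiP, fell in KO1 and KO2 tumours (-0.71 ± 0.12) and in pooled KO cells (-0.71 ± 0.14), with adjusted p of 0.0039 and 0.00806 by edgeR.

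Among the 7 DNAJ co-chaperones and SDF2 partners, 6 fell in pooled KO cells and 5 in KO1 and KO2 tumours, with or without WT tumours 1 and 4. Dnajb9 encodes ERdj4, which targets misfolded proteins to degradation and is known to bring BiP to the lumenal part of IRE1α. It had 15.8, 12.1 and 10.7 CPM in KO1 tumours, 15.5, 11.3 and 14.0 CPM in KO2 tumours and 38.2, 40.3 and 35.5 CPM in KO3 tumours. WT tumours had 38.3, 45.4, 54.7 and 56.3 CPM. The KO1 and KO2 tumours were all far below every KO3 and WT tumour, and 1 of the 3 KO3 tumours lay within the WT range. The cultured lines had 9.89 and 9.73 CPM in KO1, 14.3 and 11.9 CPM in KO2 and 11.1 and 9.02 CPM in KO3, against 29.4 and 29.9 CPM in WT, so that KO3 cells were as low as the other KO lines. The log2 fold change of -1.88 ± 0.14 in KO1 and KO2 tumours was the most negative of the 45 genes in that comparison (adjusted p = 8.62e-06 by edgeR). In KO3 tumours it was -0.36 ± 0.16 (adjusted p = 0.328), in KO1 and KO2 cells -1.39 ± 0.10 (adjusted p = 7.68e-07) and in KO3 cells -1.60 ± 0.12 (adjusted p = 3.57e-06), by edgeR throughout. KO3 tumours exceeded KO1 and KO2 tumours by 1.52 ± 0.15 (adjusted p = 2.75e-04 by edgeR).

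Sdf2l1, a partner of the DNAJ protein ERdj3 that keeps unfolded proteins from aggregating, had 32.3, 59.4 and 55.2 CPM in KO1 tumours, 45.7, 43.2 and 50.7 CPM in KO2 tumours and 106, 92.4 and 109.7 CPM in KO3 tumours. WT tumours had 102, 144, 169 and 177 CPM. KO1 and KO2 tumours lay below all others, and 2 of the 3 KO3 tumours lay within the WT range. In cells it had 16.7 and 15.6 CPM in KO1, 15.9 and 20.1 CPM in KO2 and 19.2 and 15.1 CPM in KO3, against 47.1 and 43.2 CPM in WT. Its log2 fold changes were -1.64 ± 0.17 in KO1 and KO2 tumours (adjusted p = 1.33e-04 by edgeR), -0.53 ± 0.21 in KO3 tumours (adjusted p = 0.261) and -1.41 ± 0.11 in pooled KO cells (adjusted p = 4.35e-05). Dnajb11, which encodes ERdj3 itself and whose promoter holds the ERSE-II printed above, had 51.8, 52.9 and 55.1 CPM in KO1 tumours, 50.7, 52.1 and 46.3 CPM in KO2 tumours and 69.7, 78.6 and 77.0 CPM in KO3 tumours. WT tumours had 86.8, 96.6, 97.4 and 77.7 CPM. All KO1 and KO2 tumours were below all others, and 1 KO3 tumour lay within the WT range. Cultured cells had 35.9 and 37.6 CPM in KO1, 40.4 and 40.9 CPM in KO2 and 46.5 and 43.3 CPM in KO3, against 85.8 and 85.6 CPM in WT. It fell by 0.80 ± 0.08 on the log2 scale in KO1 and KO2 tumours (adjusted p = 1.12e-04 by edgeR) and by 1.08 ± 0.09 in pooled KO cells (adjusted p = 5.81e-05).

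Dnajc10 encodes ERdj5, a DNAJ protein with thioredoxin domains that reduces disulfides of proteins bound for degradation. It had 113, 89.4 and 87.4 CPM in KO1 tumours, 114, 99.2 and 102 CPM in KO2 tumours and 98.4, 141 and 109 CPM in KO3 tumours. WT tumours had 98.9, 106, 101 and 112 CPM. The groups overlapped widely in tumours. The cell libraries held 85.4 and 89.6 CPM in KO1, 85.6 and 75.7 CPM in KO2 and 104 and 102 CPM in KO3, against 142 and 131 CPM in WT, and the KO libraries did not overlap WT. It fell in pooled KO cells (-0.61 ± 0.11, adjusted p = 0.00546 by edgeR), a call lost without WT cell library 1 (adjusted p = 0.101) or 2 (adjusted p = 0.056), and was at -0.06 ± 0.11 in KO1 and KO2 tumours (adjusted p = 0.793). Of the others, Dnajc3, the p58IPK co-chaperone, fell in KO1 and KO2 tumours (-0.98 ± 0.11) and pooled KO cells (-1.12 ± 0.09), with adjusted p of 2.24e-04 and 6.49e-05 by edgeR. Sdf2 fell less, at -0.40 ± 0.07 and -0.71 ± 0.09, and Dnajc1 was at -0.29 ± 0.11 and -0.24 ± 0.09 and passed in neither of these comparisons.

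The PDI family, 13 genes in all, held 9 enzymes that fell in pooled KO cells and 4 others, of which 3 are transmembrane, that did not pass there. In KO1 and KO2 tumours 6 of the 13 fell, or 5 without WT tumours 1 and 4. P4hb encodes PDI itself, which is also the beta subunit of collagen prolyl 4-hydroxylase, and it showed the smallest adjusted p of this class between KO3 and the other KO lines in tumours. It had 599.6, 645 and 714 CPM in KO1 tumours, 702, 696 and 722 CPM in KO2 tumours and 2024, 1774 and 1717 CPM in KO3 tumours. WT tumours had 2139, 2349, 2012 and 1948 CPM. No KO1 or KO2 tumour exceeded 722 CPM and no other tumour was below 1717 CPM, and 1 KO3 tumour lay within the WT range. In vitro the level was 598 and 623 CPM in KO1, 560.1 and 581 CPM in KO2 and 736 and 729 CPM in KO3, against 1796 and 1675 CPM in WT. KO3 cells were thus nearer to the other KO lines than to WT, while KO3 tumours were nearer to WT tumours. The log2 fold change was -1.64 ± 0.09 in KO1 and KO2 tumours (adjusted p = 6.71e-07 by edgeR) and -0.21 ± 0.11 in KO3 tumours (adjusted p = 0.412). For P4hb in culture edgeR gave -1.55 ± 0.06 in KO1 and KO2 cells (adjusted p = 7.75e-09) and -1.28 ± 0.08 in KO3 cells (adjusted p = 4.90e-07). KO3 tumours exceeded KO1 and KO2 tumours by 1.43 ± 0.09 (adjusted p = 7.84e-06 by edgeR), the smallest adjusted p among the 45 genes.

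Pdia4, also called ERp72, had 325, 325 and 328 CPM in KO1 tumours, 329, 376 and 389 CPM in KO2 tumours and 506, 524 and 433 CPM in KO3 tumours. WT tumours had 498, 499, 425 and 399 CPM. All KO1 and KO2 tumours were below every WT tumour, though by little, and 2 KO3 tumours were above every WT tumour. Levels in culture were 109 and 111 CPM in KO1, 106 and 105 CPM in KO2 and 146 and 138 CPM in KO3, against 283 and 265 CPM in WT, with KO far below WT. Its fall measured 1.22 ± 0.12 on the log2 scale in pooled KO cells (adjusted p = 2.03e-04 by edgeR) and 0.40 ± 0.09 in KO1 and KO2 tumours (adjusted p = 0.0202), the last call being lost without WT tumour 2 (adjusted p = 0.0703), KO1 tumour 2 (adjusted p = 0.052) or KO2 tumour 1 (adjusted p = 0.0719). Pdia4 overlaps Mir704 on its strand in GENCODE M21, so its reads may be split. Pdia6, also called P5, had 413, 439 and 464 CPM in KO1 tumours, 505, 457 and 523 CPM in KO2 tumours and 862, 852 and 787 CPM in KO3 tumours. WT tumours had 899, 839.5, 875 and 941 CPM. The KO1 and KO2 tumours were all below the others, and 2 KO3 tumours lay within the WT range. The cultured lines had 279 and 306 CPM in KO1, 309.6 and 287 CPM in KO2 and 465 and 454 CPM in KO3, against 966 and 955 CPM in WT, with KO3 cells between the other KO lines and WT. Log2 fold changes were -0.93 ± 0.08 in KO1 and KO2 tumours (adjusted p = 1.96e-05 by edgeR) and -0.10 ± 0.09 in KO3 tumours (adjusted p = 0.703). For Pdia6 in culture edgeR gave -1.70 ± 0.07 in KO1 and KO2 cells (adjusted p = 6.14e-09) and -1.10 ± 0.08 in KO3 cells (adjusted p = 2.02e-06).

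Pdia5, a further PDI family enzyme, fell most of this class in KO1 and KO2 cells (-1.98 ± 0.06, adjusted p = 1.64e-09 by edgeR) and was at -1.30 ± 0.11 in KO1 and KO2 tumours (adjusted p = 1.96e-05). Pdia3, also called ERp57, which works with calnexin and calreticulin on glycoproteins, fell in KO1 and KO2 cells (-1.06 ± 0.07, adjusted p = 3.23e-07 by edgeR) and was at -0.22 ± 0.14 in KO1 and KO2 tumours (adjusted p = 0.354). Erp44, which retains ERO1 oxidases and other clients in the early secretory pathway, fell in both (-1.10 ± 0.09 and -0.78 ± 0.10, adjusted p = 2.04e-06 and 3.23e-04 by edgeR). Txndc5 likewise passed in both, at -1.18 ± 0.06 and -0.43 ± 0.10, and Erp29, a member without an active-site cysteine pair, passed in KO1 and KO2 cells alone of these, at -0.68 ± 0.06 and -0.28 ± 0.10. Txndc12, Tmx2, Tmx3 and Tmx4 passed in no comparison of KO with WT, in cells or tumours, and their log2 fold changes there lay between -0.20 and 0.36. Tmx1, a transmembrane member as well, fell in pooled KO cells by 0.35 ± 0.08 on the log2 scale (adjusted p = 0.0156 by edgeR).

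Of the 4 oxidases and peroxiredoxin, 3 fell in pooled KO cells and all 4 in KO1 and KO2 tumours, but 2 of the 4 without WT tumours 1 and 4. Ero1lb encodes ERO1 beta, an oxidase that recharges PDI and is best known from secretory cells. It had 22.3, 16.0 and 15.6 CPM in KO1 tumours, 19.3, 22.1 and 17.7 CPM in KO2 tumours and 42.8, 39.9 and 31.9 CPM in KO3 tumours. WT tumours had 50.5, 56.3, 44.3 and 51.8 CPM. Here KO3 tumours lay above all KO1 and KO2 tumours and below all WT tumours. Levels were low in culture, at 4.52 and 4.39 CPM in KO1, 2.35 and 2.74 CPM in KO2 and 3.52 and 3.21 CPM in KO3, against 14.6 and 14.5 CPM in WT. Its log2 fold change of -2.08 ± 0.21 in pooled KO cells was the most negative of the 44 genes tested there (adjusted p = 2.48e-04 by edgeR). In KO1 and KO2 tumours it was -1.43 ± 0.12 (adjusted p = 2.35e-05 by edgeR) and in KO3 tumours -0.41 ± 0.15 (adjusted p = 0.213). Prdx4, the peroxiredoxin of the ER, which uses the peroxide that ERO1 makes, had 82.9, 97.4 and 88.1 CPM in KO1 tumours, 119.6, 81.7 and 108 CPM in KO2 tumours and 147, 115 and 126 CPM in KO3 tumours. WT tumours had 150.2, 112, 131 and 154 CPM. Within the WT range lay 1 KO2 tumour and all KO3 tumours. In cells it had 81.2 and 76.1 CPM in KO1, 66.9 and 67.6 CPM in KO2 and 86.0 and 88.5 CPM in KO3, against 170.2 and 158 CPM in WT, with no overlap. Prdx4 fell by 1.09 ± 0.10 on the log2 scale in pooled KO cells (adjusted p = 1.69e-04 by edgeR) and by 0.51 ± 0.13 in KO1 and KO2 tumours (adjusted p = 0.0248), the last call being lost without WT tumour 4 (adjusted p = 0.0611), KO1 tumour 1 (adjusted p = 0.0554), KO1 tumour 3 (adjusted p = 0.059) or KO2 tumour 2 (adjusted p = 0.0529).

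Ero1l, which encodes the more widely expressed ERO1 alpha, is described in full after its values were seen. It had 516, 349.9 and 382 CPM in KO1 tumours, 423, 652 and 408 CPM in KO2 tumours and 655, 493 and 365 CPM in KO3 tumours. WT tumours had 701, 846, 788 and 666 CPM. Each of the 9 KO tumours, KO3 included, lay below each WT tumour. Cultured cells had 192 and 198 CPM in KO1, 185 and 177 CPM in KO2 and 137 and 141 CPM in KO3, against 175 and 183 CPM in WT, and KO1 and KO2 cells were not below WT. The log2 fold change was -0.73 ± 0.18 in KO1 and KO2 tumours (adjusted p = 0.0262 by edgeR) and -0.58 ± 0.22 in KO3 tumours (adjusted p = 0.239). For Ero1l in culture edgeR gave 0.07 ± 0.06 in KO1 and KO2 cells (adjusted p = 0.38) and -0.40 ± 0.07 in KO3 cells (adjusted p = 0.00158). Qsox1, a sulfhydryl oxidase of the secretory pathway, fell in pooled KO cells (-0.65 ± 0.12, adjusted p = 0.00697 by edgeR) and in KO1 and KO2 tumours (-0.45 ± 0.10, adjusted p = 0.0131).

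Prolyl isomerases turn the peptide bond before proline, a slow step in the folding of collagens and other proteins. Of the 8, 5 of the 7 tested fell in pooled KO cells, and 3 of 8 fell in KO1 and KO2 tumours, with or without WT tumours 1 and 4. Fkbp11, a membrane-anchored member known from secretory tissues, had 12.1, 18.2 and 20.7 CPM in KO1 tumours, 19.8, 16.3 and 22.5 CPM in KO2 tumours and 41.1, 41.6 and 45.2 CPM in KO3 tumours. WT tumours had 48.8, 79.0, 51.7 and 45.4 CPM. Again KO1 and KO2 tumours were below all KO3 tumours, which in turn lay below all WT tumours, the closest pair of KO3 and WT tumours being 45.2 and 45.4 CPM. The cell libraries held 13.7 and 11.6 CPM in KO1, 13.4 and 13.8 CPM in KO2 and 18.7 and 16.2 CPM in KO3, against 55.1 and 52.4 CPM in WT. The log2 fold change was -1.63 ± 0.17 in KO1 and KO2 tumours (adjusted p = 1.22e-04 by edgeR), -0.40 ± 0.21 in KO3 tumours (adjusted p = 0.402) and -1.90 ± 0.13 in pooled KO cells (adjusted p = 2.75e-05). Ppib, or cyclophilin B, which acts on collagen with prolyl 3-hydroxylase, had 225, 332 and 313 CPM in KO1 tumours, 385, 322 and 445 CPM in KO2 tumours and 495, 391 and 483 CPM in KO3 tumours. WT tumours had 577, 521, 538 and 322 CPM. The lowest WT tumour, number 4, lay among the KO1 and KO2 tumours. In vitro the level was 237 and 202 CPM in KO1, 210.0 and 231 CPM in KO2 and 282 and 271 CPM in KO3, against 404 and 389.5 CPM in WT, with no overlap between KO and WT. It passed in pooled KO cells (-0.74 ± 0.12, adjusted p = 0.00297 by edgeR), a call lost without WT cell library 1 (adjusted p = 0.0563), and not in KO1 and KO2 tumours (-0.56 ± 0.17, adjusted p = 0.058 by edgeR).

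Fkbp14, which helps fold type III collagen and whose loss in people causes a form of Ehlers-Danlos syndrome, had 11.8, 8.58 and 7.67 CPM in KO1 tumours, 9.76, 7.37 and 10.0 CPM in KO2 tumours and 13.9, 16.4 and 13.7 CPM in KO3 tumours. WT tumours had 17.1, 14.5, 10.7 and 12.4 CPM. All KO3 tumours and 1 KO1 tumour lay within the WT range, and the other KO1 and KO2 tumours lay below it. Levels in culture were 3.26 and 2.94 CPM in KO1, 4.44 and 2.99 CPM in KO2 and 6.24 and 6.70 CPM in KO3, against 14.0 and 12.4 CPM in WT, where KO3 lay between the other KO lines and WT. It fell in KO1 and KO2 cells (-1.96 ± 0.15, adjusted p = 8.46e-07 by edgeR) and in KO3 cells (-1.06 ± 0.16, adjusted p = 7.30e-04). In KO1 and KO2 tumours the log2 fold change was -0.57 ± 0.16, at the threshold (adjusted p = 0.0489 by edgeR), and 11 of the 13 fits that each left out 1 tumour lost that call, with adjusted p up to 0.119 without WT tumour 2. Fkbp2 fell in KO1 and KO2 tumours (-1.08 ± 0.14, adjusted p = 6.00e-04 by edgeR) and in pooled KO cells (-0.92 ± 0.15, adjusted p = 0.00356). Fkbp7, Fkbp9 and Fkbp10, of which Fkbp10 is a collagen chaperone, passed in KO1 and KO2 cells and not in KO1 and KO2 tumours, where their log2 fold changes were -0.43 ± 0.27, 0.09 ± 0.11 and -0.10 ± 0.13. For Fkbp10 the 2 lines differed in cells, at 55.1 and 61.1 CPM in KO1 and 36.0 and 42.9 CPM in KO2, against 59.4 and 59.9 CPM in WT, so that KO1 cells were not clear of WT. Ppic had no count in any of the 8 cell libraries and 694 to 952 counts in the tumours of a line, at least 260-fold more in KO1, 123-fold in KO2, 185-fold in KO3 and 167-fold in WT, taking 3 counts over the 2 cell libraries of a line as the limit and CPM without TMM. It was not tested in cells.

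In the last class are ER proteins with other roles: MANF, a stress-induced protein that binds BiP and can be secreted, CRELD proteins, canopy proteins and nucleobindins. Manf had 215, 268 and 239 CPM in KO1 tumours, 252, 262 and 278 CPM in KO2 tumours and 402, 388 and 408 CPM in KO3 tumours. WT tumours had 425, 529, 475 and 506 CPM. KO1 and KO2 tumours were the lowest, and KO3 tumours lay between them and WT tumours without overlap. The cultured lines had 74.6 and 51.8 CPM in KO1, 58.2 and 64.8 CPM in KO2 and 78.7 and 62.3 CPM in KO3, against 260.1 and 242 CPM in WT. The log2 fold change was -0.94 ± 0.09 in KO1 and KO2 tumours (adjusted p = 3.88e-05 by edgeR) and -0.28 ± 0.10 in KO3 tumours (adjusted p = 0.235). For Manf in culture edgeR gave -2.01 ± 0.12 in KO1 and KO2 cells (adjusted p = 1.47e-07) and -1.87 ± 0.15 in KO3 cells (adjusted p = 4.39e-06). Manf overlaps Rbm15b on its strand in GENCODE M21, so its counts may hold reads of both. Nucb2, a calcium-binding nucleobindin that is also the precursor of the peptide nesfatin-1, had 8.81, 8.47 and 6.46 CPM in KO1 tumours, 5.81, 7.46 and 6.81 CPM in KO2 tumours and 22.0, 29.8 and 24.7 CPM in KO3 tumours. WT tumours had 21.5, 17.8, 16.9 and 19.6 CPM. The lowest were KO1 and KO2 tumours, and all KO3 tumours were above all WT tumours. In cells it had 7.83 and 7.67 CPM in KO1, 7.42 and 7.03 CPM in KO2 and 8.86 and 9.02 CPM in KO3, against 23.2 and 23.8 CPM in WT, with KO3 slightly above the other KO lines and far below WT. Log2 fold changes were -1.38 ± 0.13 in KO1 and KO2 tumours (adjusted p = 5.03e-05 by edgeR) and 0.42 ± 0.15 in KO3 tumours (adjusted p = 0.222). For Nucb2 in culture edgeR gave -1.65 ± 0.09 in KO1 and KO2 cells (adjusted p = 6.82e-08) and -1.43 ± 0.10 in KO3 cells (adjusted p = 2.14e-06).

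Creld2, an ER stress-induced protein with PDI-like activity, fell in KO1 and KO2 tumours (-1.51 ± 0.13, adjusted p = 2.26e-05 by edgeR), where it had 29.8, 42.7 and 40.8 CPM in KO1 and 36.5, 38.1 and 38.9 CPM in KO2, against 116, 101, 127 and 84.7 CPM in WT. KO3 tumours, at 108, 88.1 and 85.1 CPM, lay within the WT range. In pooled KO cells it fell by 1.07 ± 0.12 on the log2 scale (adjusted p = 5.67e-04 by edgeR). Nucb1 differed from Nucb2: it fell in KO1 and KO2 cells (-0.53 ± 0.06, adjusted p = 1.89e-05 by edgeR) but was at 0.06 ± 0.07 in KO3 cells (adjusted p = 0.539), and the direct difference of KO3 from KO1 and KO2 cells was 0.59 ± 0.06 (adjusted p = 1.45e-05 by edgeR). Cnpy3, a chaperone that works with GRP94 on Toll-like receptors, fell by 0.29 ± 0.08 on the log2 scale in pooled KO cells (adjusted p = 0.0449 by edgeR). Creld1, Cnpy2 and Cnpy4 passed in no comparison of KO with WT. Creld1 was at 0.314 to 0.731 CPM in all cell libraries and 1.05 to 6.92 CPM in tumours, so a difference between genotypes could not be detected well in cells.

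**Figure D3:**
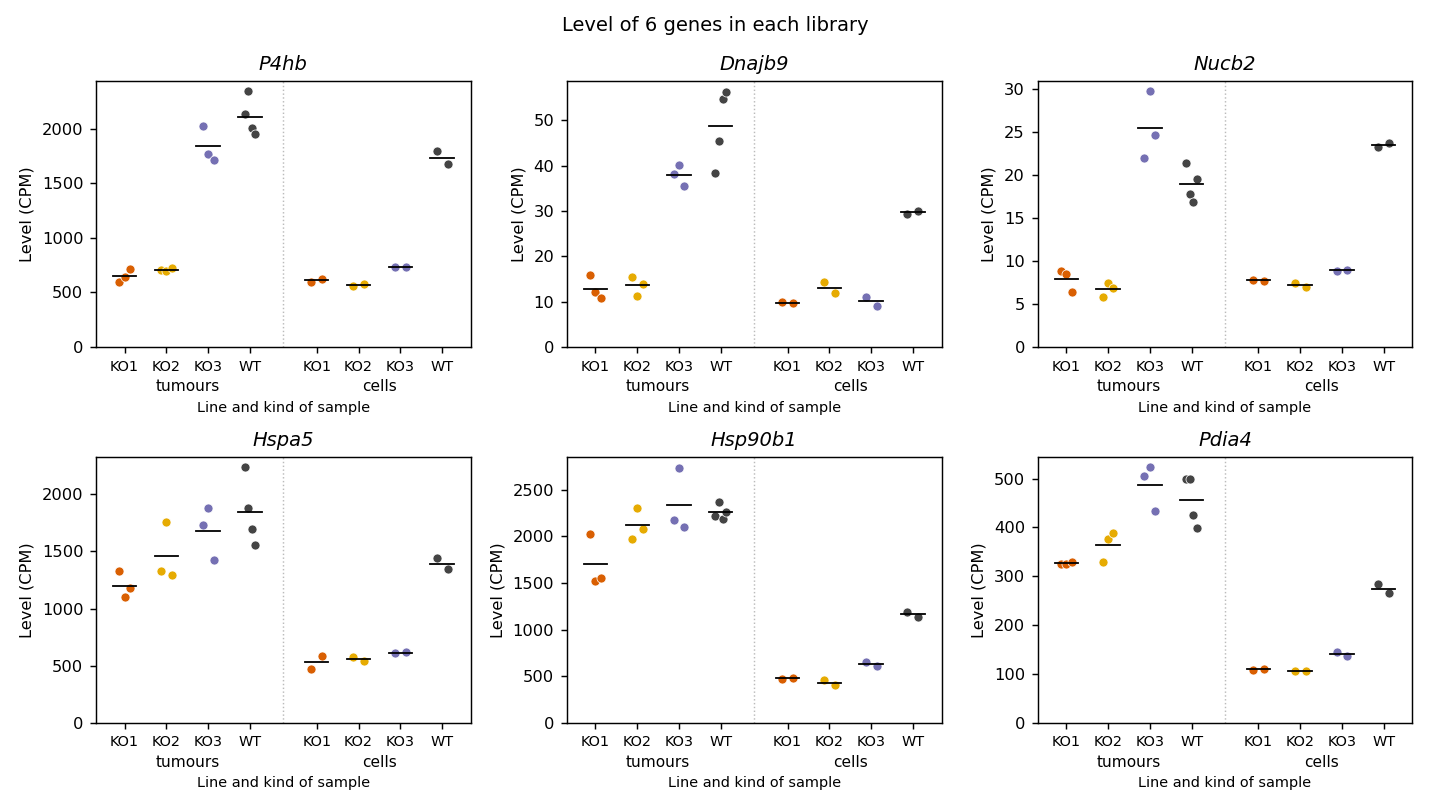
Level in CPM (vertical axes) of 6 genes in each library (points), with the mean per group (bars), tumours left of cells. In the upper row, P4hb, Dnajb9 and Nucb2 were low in KO1 and KO2 tumours and near WT or above in KO3 tumours. In the lower row, Hspa5, Hsp90b1 and Pdia4 were closer to WT in KO1 and KO2 tumours, and all 6 were low in the cells of every KO line.

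The next question was whether the KO effect of a gene differed between tumours and cells, tested as the difference of the 2 effects in 1 fit of all 21 libraries. In KO1 and KO2, 14 of 45 genes had a KO effect less negative in tumours than in cells and none more negative (3.68% and 1.62% of all 15173 genes), with a median difference of 0.31 on the log2 scale. At an unadjusted p under 0.05, 19 were less and 2 more negative, and 1 was called more negative by DESeq2 and 2 by limma voom. The 14 were Hspa5, Hsp90b1, Dnajc10, Sdf2, Pdia3, Pdia4, Pdia5, Pdia6, Txndc5, Ero1lb, Prdx4, Fkbp9, Fkbp14 and Manf. Hsp90b1 differed by 1.12 ± 0.16 (adjusted p = 4.39e-04 by edgeR), Pdia4 by 0.96 ± 0.14 (adjusted p = 4.68e-04), Pdia6 by 0.79 ± 0.11 (adjusted p = 2.82e-04), Manf by 1.09 ± 0.16 (adjusted p = 5.26e-04) and Fkbp14 by 1.40 ± 0.28 (adjusted p = 0.00531), all on the log2 scale. By contrast P4hb differed by -0.06 ± 0.13, Dnajb9 by -0.46 ± 0.20, Sdf2l1 by -0.20 ± 0.26 and Creld2 by -0.36 ± 0.22, none of which passed. The count of 14 went to 6 without WT cell library 1 or 2, to 8 without KO1 cell library 1 and to 9 without KO2 cell library 2, and was 13 without WT tumours 1 and 4. Ppic had no count in cells, so its fitted value in these differences is not informative, though it is among the 45 and enters the medians.

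In KO3, 17 of 45 genes had a KO effect less negative in tumours than in cells and none a more negative one (1.66% and 0.395% of all genes), and the median difference was 0.68 on the log2 scale. None was more negative at an unadjusted p under 0.05 or by DESeq2 or limma voom. The 17 were Hspa5, Hsp90b1, Hyou1, Dnajb9, Dnajb11, Dnajc3, Sdf2, P4hb, Pdia4, Pdia5, Pdia6, Txndc5, Ero1lb, Prdx4, Fkbp11, Manf and Nucb2. Nucb2 differed most, by 1.87 ± 0.23 (adjusted p = 2.17e-04 by edgeR), followed by Ero1lb with 1.75 ± 0.23 (adjusted p = 3.16e-04) and Manf with 1.62 ± 0.19 (adjusted p = 1.82e-04). P4hb differed by 1.09 ± 0.15 (adjusted p = 5.50e-04 by edgeR) and Hyou1 by 1.34 ± 0.17 (adjusted p = 2.17e-04). The count of 17 went to 11 without WT cell library 1 or 2 or KO3 cell library 1, to 10 without KO3 cell library 2, and was 16 without WT tumours 1 and 4. These 2 comparisons share the WT libraries, so their likeness is not a result.

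The lines themselves were then compared across tumours and cells. For 9 genes, Hyou1, Dnajb9, Dnajc3, Sdf2l1, P4hb, Ero1lb, Fkbp2, Creld2 and Nucb2, the gap between KO3 and the other KO lines was more positive in tumours than in cells, and for none was it more negative (2.23% and 2.16% of all genes), with a median of 0.27. None was more negative at an unadjusted p under 0.05 or by DESeq2 or limma voom. Dnajb9 had the widest change of gap, 1.73 ± 0.21 on the log2 scale (adjusted p = 1.73e-04 by edgeR), then Nucb2 with 1.59 ± 0.21 (adjusted p = 2.94e-04) and P4hb with 1.16 ± 0.14 (adjusted p = 1.29e-04). For Hspa5, Hsp90b1 and Pdia4 the change of gap was 0.19 ± 0.22, -0.14 ± 0.17 and 0.14 ± 0.15 on the log2 scale, and none of the 3 passed. The count of 9 went to 4 without KO3 cell library 2 and was 13 without WT tumours 1 and 4.

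**Figure D4:**
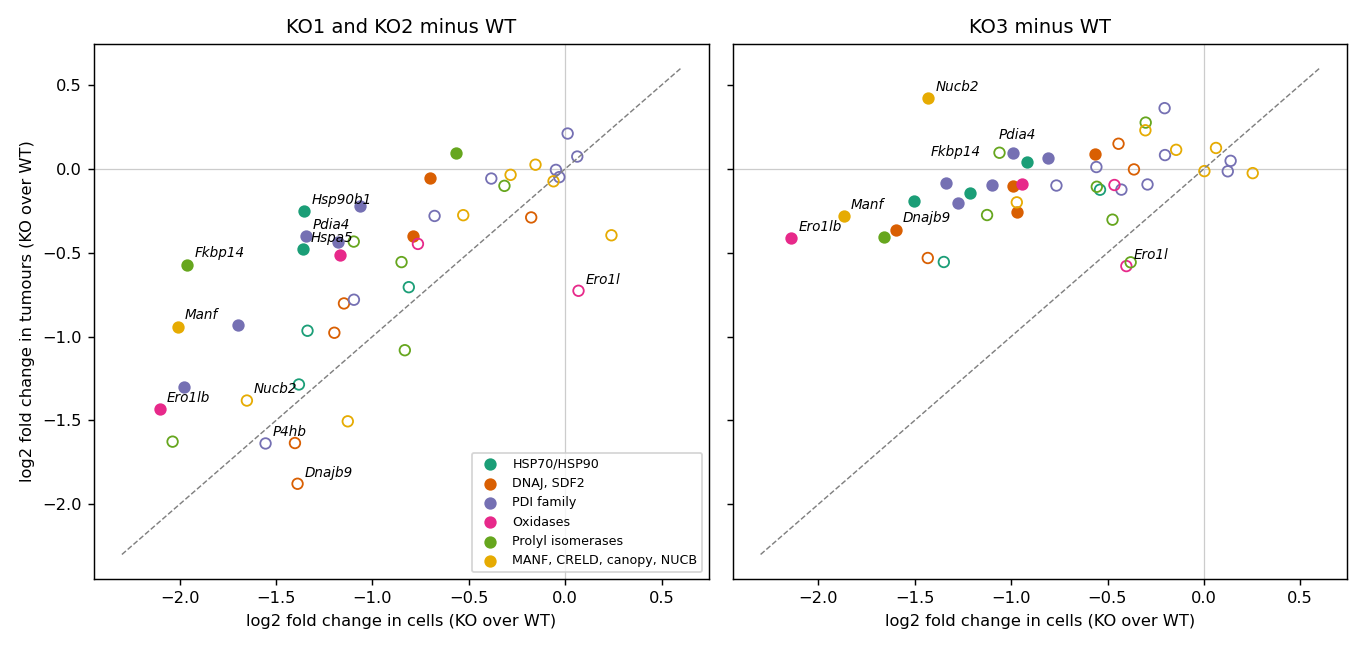
Log2 fold change of KO over WT in tumours (vertical axis) against cells (horizontal axis) for the 44 genes tested in both, for KO1 and KO2 (left) and KO3 (right), coloured by class and filled where the KO effect differed between tumours and cells at an adjusted p under 0.05 by edgeR. The dashed line marks equal effects. In the left panel points run from near or below the line (P4hb, Dnajb9) to well above it (Hsp90b1, Fkbp14), and in the right panel all genes lie between -0.58 and 0.42 in tumours whatever their value in cells.

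Tumours were also set against the cultured cells of their own line. Higher in tumours were 29 of 45 genes in KO1 (34.2% of all genes), 32 in KO2 (35.0%) and 35 in KO3 (34.9%), against 22 in WT (34.9%). Lower in tumours were 1 gene in KO1, 3 in KO2, 1 in KO3 and 6 in WT, where 24.6%, 25.9%, 23.2% and 24.8% of all genes were lower. Without WT tumours 1 and 4 in that fit, 32 were higher and 2 lower in KO1, 35 and 2 in KO2 and 37 and 1 in KO3, against 26 and 6 in WT. The share of members higher in WT tumours, 48.9%, was nearer to that of all genes than the 77.8% in KO3. Dnajc1 was the 1 gene lower in KO1, Fkbp10 the 1 in KO3, and Dnajc1, Fkbp10 and Cnpy4 the 3 in KO2. Hsp90b1, for example, was 1.91 ± 0.15, 2.30 ± 0.15 and 1.96 ± 0.15 log2 units higher in KO1, KO2 and KO3 tumours than in their cells and 0.98 ± 0.14 higher in WT (adjusted p = 1.55e-08, 1.92e-09, 1.29e-08 and 1.29e-05 by edgeR). P4hb was 0.17 ± 0.11 higher in KO1, which did not pass, 0.31 ± 0.11 in KO2 and 1.40 ± 0.12 in KO3, against 0.30 ± 0.11 in WT (adjusted p = 0.2, 0.0222, 3.08e-08 and 0.0198 by edgeR). Ero1l was raised in every line, by 1.17 ± 0.23 in KO1, 1.46 ± 0.23 in KO2 and 1.93 ± 0.24 in KO3, against 2.09 ± 0.23 in WT (adjusted p at most 3.38e-04 by edgeR). In WT, Pdia5 and Txndc5 fell in tumours, by 0.68 ± 0.12 and 0.83 ± 0.10 on the log2 scale (adjusted p = 1.62e-04 and 1.82e-06 by edgeR). The part of host cells in these differences was not tested.

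With the KO lines pooled in tumours, 6 of 45 genes fell, Slc35b1, Dnajb11, Sdf2l1, Ero1l, Ero1lb and Manf, and none rose (2.37% and 1.28% of all 14200 genes). No member rose at an unadjusted p under 0.05 or by DESeq2 or limma voom. This count rests on single libraries: it became 0 without WT tumour 2, 1 without WT tumour 3 or 4, KO1 tumour 2 or 3, or KO2 tumour 1 or 3, 2 without WT tumour 1 or KO2 tumour 2, 12 without KO3 tumour 1 and 10 without KO3 tumour 2, and it was 0 without WT tumours 1 and 4 together and 1 with WT tumours 3 and 4 summed. With the 4 lines as groups it was 19.

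Related genes outside the 45 were read from lists for comparison, beside the 9.76% of all genes that fell in pooled KO cells and the 6.04% in KO1 and KO2 tumours. Of the calnexin and calreticulin cycle, which holds glycoproteins until they fold, 5 of 6 tested genes fell in pooled KO cells and 5 of 7 in KO1 and KO2 tumours, with Uggt1 at -0.92 ± 0.09 and -0.50 ± 0.09 on the log2 scale (adjusted p = 1.50e-04 and 0.00411 by edgeR) and Canx at -0.92 ± 0.11 and -0.59 ± 0.15 (adjusted p = 8.50e-04 and 0.033 by edgeR). Of the 3 KDEL receptors, which return ER proteins such as BiP from the Golgi, 2 fell in both, Kdelr2 and Kdelr3. Of 12 collagen-modifying enzymes of the ER, 4 of the 9 tested fell in pooled KO cells and 1 of 12, P4ha1, in KO1 and KO2 tumours (-0.63 ± 0.16, adjusted p = 0.0324 by edgeR). Of cytosolic chaperones, which serve another compartment, 2 of 27 tested, Cct3 and Hspa1a, fell in pooled KO cells, with a median log2 fold change of -0.10, a share near that of all genes. Split by line, 10 fell and 1 rose in KO1 and KO2 cells (23.1% of all genes fell and 20.2% rose) and 2 fell and 1 rose in KO3 cells, and KO3 cells exceeded KO1 and KO2 cells for 9 (17.1% of all genes). Of 28 tested in tumours, Dnajb1 alone fell in KO1 and KO2. Of 9 mitochondrial chaperones, 1 fell in pooled KO cells, Dnajc19, and 2 in KO1 and KO2 tumours, Dnajc19 and Dnaja3. At an unadjusted p under 0.05 by edgeR, 3 were lower and 1 higher in KO1 and KO2 cells. In KO3 cells 5 were lower at that level, and in KO1 and KO2 tumours 4, with none higher in either. The share of all genes at that level was not counted. At an adjusted p under 0.05, the counts in KO1 and KO2 tumours without WT tumours 1 and 4 were 2 for the calnexin and calreticulin cycle, 2 for KDEL receptors and 1 each for cytosolic and mitochondrial chaperones, and P4ha1 no longer passed.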

How the data were processed

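RNA-seq of 8 cell and 13 tumour libraries was analysed from the estimated counts per gene that the authors deposited. The submitters' processing notes name Trim Galore 0.6.7, STAR, Salmon 1.5.2 and GRCm38, and settings, annotation and strand handling were not given in the sources used. Estimated counts were rounded. Genes were kept with filterByExpr, scaled by TMM and tested with edgeR 4.0.16 (quasi-likelihood F test, R 4.3.3), with Benjamini-Hochberg adjustment over all genes and a threshold of 0.05. SE is the fold change divided by the root of F. Levels are CPM with TMM over all 21 libraries. The fits were also run on simulated counts with the same spread for every gene and no differences in tumour composition. That run does not check the model under the spread of these tumours. Alternatives used DESeq2 1.42.0, limma 3.58.1, other scaling and filters, and left-out libraries. The 45 genes and the lists were chosen with earlier results of these data known. Genes given in every library are, per class, the 2 with the smallest p in pooled KO cells, the smallest p between KO lines in tumours and between tumours and cells, and others named as added. Hspa5, Creld2 and Ero1l were added after their values were seen. Promoters came from RefSeq. All replicate pairs differed by more than sampling noise. Some markers of prostate epithelium are not reported here.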

Additional observations from a re-analysis of the deposited data

Results flagged for a closer look

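Among the 45 genes, 3 had a WT tumour far from the other 3 by Dixon's test, which chance alone would do in about 1 of 20 genes. Erp29 was at 219 CPM in WT tumour 2, where the nearest other WT tumour had 199 CPM. Txndc5 was at 150.5 CPM in WT tumour 1, the nearest being 191 CPM. Fkbp7 was at 10.2 CPM in WT tumour 1, the nearest being 4.43 CPM.

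The KO effect differed between tumours and cells, by the test of that difference in edgeR, for the genes below, and every difference was positive. In KO1 and KO2 it was 1.12 on the log2 scale for Hsp90b1, 0.67 for Dnajc10, 0.96 for Pdia4, 0.79 for Pdia6, 0.69 for Ero1lb, 0.68 for Prdx4, 1.40 for Fkbp14 and 1.09 for Manf. In KO3 it was 0.99 for Hsp90b1, 1.34 for Hyou1, 1.27 for Dnajb9, 0.73 for Dnajb11, 1.09 for P4hb, 1.10 for Pdia4, 1.02 for Pdia6, 1.75 for Ero1lb, 0.88 for Prdx4, 1.28 for Fkbp11, 1.62 for Manf and 1.87 for Nucb2. The gap of KO3 over KO1 and KO2 was wider in tumours than in cells by 0.94 on the log2 scale for Hyou1, 1.73 for Dnajb9, 1.14 for Sdf2l1, 1.16 for P4hb, 1.06 for Ero1lb and 1.59 for Nucb2.

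Some of these calls rest on single libraries. In KO1 and KO2, 14 of 21 fits that each left out 1 library lost the call of Prdx4 (adjusted p up to 0.195 by edgeR), 13 that of Ero1lb (up to 0.204) and 3 that of Dnajc10 (up to 0.136). In KO3, 13 lost the call of Prdx4 (up to 0.205), 7 that of Fkbp11 (up to 0.222), 4 that of Hsp90b1 (up to 0.0822), 2 that of Dnajb11 (up to 0.091) and 1 that of Dnajb9 (up to 0.0787). Between KO3 and the other KO lines in tumours, the calls of Pdia4 (9 of 13 fits, adjusted p up to 0.162), Slc35b1 (6, up to 0.19), Dnajb11 (2, up to 0.0706) and Sdf2l1 (1, up to 0.0706) were lost likewise. The flagged calls for a gap wider in tumours than in cells were not checked gene by gene in this way. Over the 45 genes, their count went from 9 to 4 without KO3 cell library 2.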

How the results depend on the processing

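Signs were checked for the 17 genes chosen by rule, over 68 of their calls. None reversed under any alternative run, where 1395 values kept the call and 190 lost it. Other called genes were not checked in this way. Pooled KO against WT tumours, with 6 calls, moved under 7 settings: DESeq2 gave 12, limma voom with quality weights 17, the replicate block 0, WT tumours 3 and 4 summed, in case they came from 1 mouse, 1, WT tumours 1 and 4 left out 0, lines as groups 19 and libraries summed per line 0. Pooled KO cells gave 5 of 32 with libraries summed per line. KO3 against WT tumours gave 1 with DESeq2 and 4 with voom in place of 0, and KO2 alone gave 16 in place of 25 in tumours. For the effect in tumours minus cells, voom gave 25 in place of 14 in KO1 and KO2 and 31 in place of 17 in KO3 (26 with weights by kind of sample), and 16 (15 by kind) in place of 9 for KO3 minus the other lines. The cause of these moves was not tested.

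Leaving out 1 library at a time gave 22 to 31 calls for pooled KO cells, 0 to 12 for pooled KO tumours, 33 to 36 and 20 to 24 for KO1 and KO2 cells and tumours, 31 to 35 and 0 to 0 for KO3 cells and tumours, and 11 to 24 and 12 to 22 for KO3 minus the other KO lines in cells and tumours. Tumours minus cells gave 25 to 32 in KO1, 25 to 37 in KO2, 33 to 37 in KO3 and 23 to 30 in WT. The differences of effects gave 6 to 15, 10 to 20 and 4 to 13. Whether replicate numbers pair the samples was checked by correlating deviations from group means. In tumours same-numbered libraries correlated at -0.413 to 0.196, and 1 of 13 libraries correlated best with its own number, so no pairing was seen there. In cells they correlated at -0.089 to 0.162, and 4 of 8 libraries correlated best with their own number. With 2 libraries per cell group the deviations mirror each other, so these values cannot decide the question in cells. With the replicate block, pooled KO cells gave 31 calls and the tumours of KO1 and KO2 gave 23. With 2 libraries per cell group and 1 WT line, differences between lines cannot be told apart from differences between genotypes.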
